A study of Mus musculus with 36 samples.

Results

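The genes described here are 10 regulators of the G1 phase of the cell cycle, followed through the conversion of mouse B cells into macrophages. They are the CDK inhibitors Cdkn1a, Cdkn1b, Cdkn2c and Cdkn2d, the kinases Cdk2, Cdk4 and Cdk6, and the D-type cyclins Ccnd1, Ccnd2 and Ccnd3. They were chosen by name, and all 10 were found among the 40354 genes of the count tables and passed the filter on low counts, which kept 17277 genes. B cells from the bone marrow of C57BL/6J mice received a retrovirus with an hCD4 tag. It carried C/EBPα fused to the hormone-binding domain of the estrogen receptor (ER). The hCD4+ cells were grown with IL-7 on embryonic fibroblast (MEF) feeders inactivated with mitomycin-C. C/EBPα is the myeloid transcription factor that turns these cells into macrophages once estradiol (E2) brings the fusion protein into the nucleus, and myeloid cytokines were added with it. IL-7 was in the starting medium but not in the medium renewed every 2 days. Its loss and time therefore cannot be told apart late in the course. The constructs were the wild type (WT) and 2 replacements of arginine 35, by alanine (R35A) or by lysine (R35K), and cells were collected at 0, 1, 3, 6, 18 and 120 hours post induction (hpi, or h in lists of values). Each of the 18 groups held 2 libraries of poly(A) RNA, 36 in all, and every group, the uninduced one included, carried a C/EBPα-ER construct. Feeder cells were removed before extraction by their adherence to a dish, so RNA of feeders that stayed behind was counted with that of the B cells.

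Cells pass from G1 into S phase when the retinoblastoma protein RB and its relatives are phosphorylated and release E2F transcription factors. D-type cyclins bound to CDK4 or CDK6 begin this phosphorylation, and CDK2 bound to E-type and then A-type cyclins carries it further. The INK4 inhibitors p18 (Cdkn2c) and p19 (Cdkn2d) bind CDK4 and CDK6, while the Cip/Kip inhibitors p21 (Cdkn1a) and p27 (Cdkn1b) act on CDK2 complexes. C/EBPα is known to restrain proliferation in many cell types, and B cell precursors grown with IL-7 divide.

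Promoter windows from RefSeq (GRCm38.p6, 250 bases before to 50 after an annotated start) were matched by symbol for 8 of the 10 members and gave 11 windows, because 3 members had 2 each. Ccnd1 and Ccnd2 had no entry. The windows were searched on both strands for the E2F letters TTTCCCGC, TTTCGCGC, TTTGCCGC and TTTGGCGC, the E-box CACGTG, the C/EBP letters TTGCNNAA and the PU.1 letters GAGGAA. E2F letters were found in 1 of the 11 windows, against 2.26% of all 32851 promoter windows, and CACGTG in 3, against 7.15%. C/EBP letters were found in 1 window, against 10.8%, and PU.1 letters in 1, against 28.3%. A match describes letters only, not a bound site. The windows of Cdk2 and of the downstream start of Cdkn2c are shown because they hold the only E2F and C/EBP matches among the 11, and that of Cdk4 because it holds the most CACGTG matches and its gene changed least. The upstream window of Cdkn2c held no match, and the downstream one also holds a CACGTG match (from +35) and the PU.1 match (from -150), which are left in lower case. Capitals mark the E2F letters in Cdk2 (from position -140, read on the opposite strand), the C/EBP letters in Cdkn2c (from +23) and the 4 CACGTG matches in Cdk4, and each window runs 5′ to 3′ along its gene.
Cdk2, chr10:128705002-128705301, minus strand: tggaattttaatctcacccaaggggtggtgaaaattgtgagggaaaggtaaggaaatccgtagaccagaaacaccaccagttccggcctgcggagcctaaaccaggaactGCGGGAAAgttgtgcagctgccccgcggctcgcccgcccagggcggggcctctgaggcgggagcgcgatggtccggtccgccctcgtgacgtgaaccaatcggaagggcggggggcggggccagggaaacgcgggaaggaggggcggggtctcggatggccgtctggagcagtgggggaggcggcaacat
Cdkn2c, chr4:109665323-109665622, minus strand: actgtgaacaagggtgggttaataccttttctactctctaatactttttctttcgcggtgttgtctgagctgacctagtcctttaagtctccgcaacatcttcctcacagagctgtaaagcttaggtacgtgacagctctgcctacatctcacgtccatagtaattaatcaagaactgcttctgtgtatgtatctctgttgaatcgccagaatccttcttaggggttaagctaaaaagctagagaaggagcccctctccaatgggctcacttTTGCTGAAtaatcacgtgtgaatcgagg
Cdk4, chr10:127063285-127063584, plus strand: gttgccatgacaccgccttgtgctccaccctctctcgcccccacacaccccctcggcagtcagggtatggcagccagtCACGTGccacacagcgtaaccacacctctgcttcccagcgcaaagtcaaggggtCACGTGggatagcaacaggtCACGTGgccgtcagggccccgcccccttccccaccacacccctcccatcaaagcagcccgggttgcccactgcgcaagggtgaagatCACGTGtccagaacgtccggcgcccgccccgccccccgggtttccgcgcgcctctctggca

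Library totals ran from 13044456 to 23131776 counts, and the lowest count of any member in any library was 141. Levels are given as CPM, read counts scaled to a common library total with TMM factors. The libraries WT 6 hpi replicate 1 and R35K 3 hpi replicate 2 stood apart by reads of the rRNA gene CT010467.1, which took 0.73% and 0.473% of their counts, against 0.0112% to 0.149% in the other 34. Without both, Cdkn2d was called at 6 hpi for R35K minus WT (-0.59 on the log2 scale against -0.42 with them), and no other member's call at WT 6 hpi or R35K 3 hpi changed. Exons of Ccnd1, Cdk4 and Ccnd3 share 1100, 641 and 361 bases with the opposite-strand genes LTO1, Tspan31 and Bysl, and reads there cannot be told apart unless the counting used strand, which the sources used here do not say. R35K libraries were deposited in their own table, so that construct and table cannot be told apart at a single time, and each mutant was therefore compared with the wild type through its change from its own 0 hpi libraries.

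Marker genes went with the labels. The 7 B cell markers summed to 3069 and 3125 CPM in the wild-type libraries at 0 hpi and 132 and 137 CPM at 120 hpi, and the 8 macrophage markers to 64.9 and 65.5 and then 20953 and 21188 CPM. The 14 fibroblast markers stood at 5658 and 5869 CPM in wild-type libraries at 0 hpi, 9296 and 9353 at 1 hpi, 13453 and 13772 at 18 hpi and 537 and 613 at 120 hpi. They stood at 6022 and 6138, 9440.5 and 9454, 9178 and 9189 and 1664 and 1768 CPM in R35A libraries and at 5866 and 6097, 7053 and 7285, 7752 and 7843 and 1277 and 1452 CPM in R35K libraries. Fibroblast RNA was thus present through 18 hpi, most of all in wild-type cells at 18 hpi, and fell by 120 hpi, where Lum was at 0 counts in all 6 libraries. The 6 T and NK cell markers together stayed at or below 2.19 CPM. The part of feeder RNA in the members' values was not tested, and fewer cells of a type and less RNA per cell cannot be told apart in these samples.

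**Figure D1:**
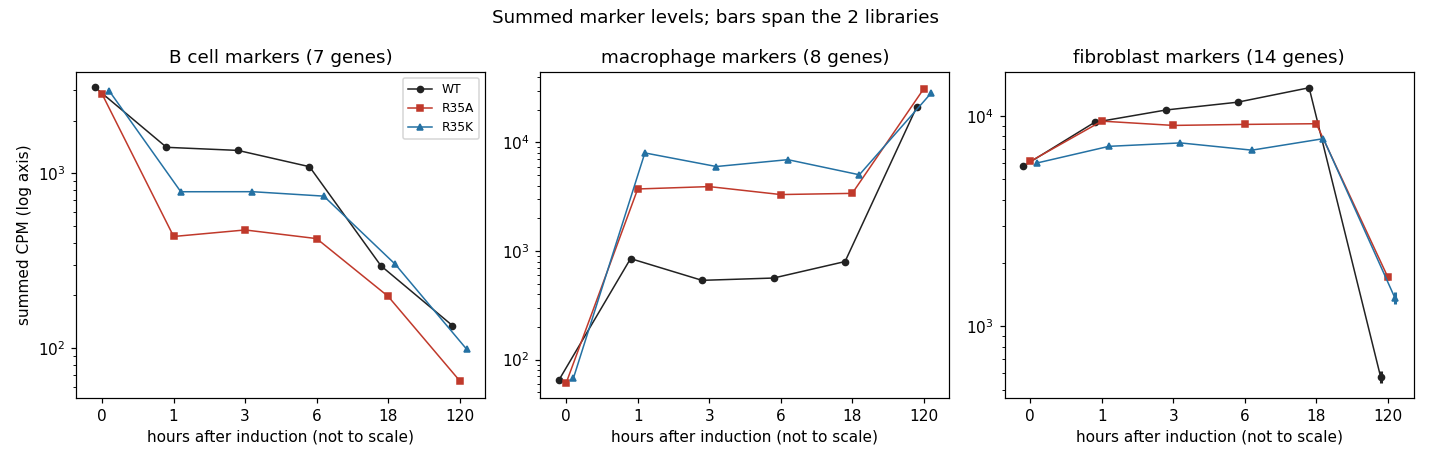
Summed CPM (log axis) of 7 B cell, 8 macrophage and 14 fibroblast markers against hours after induction (not to scale). Points are means of 2 libraries and bars span them. Fibroblast markers stood at 13453 and 13772 CPM in wild-type cells at 18 hpi and 537 and 613 CPM at 120 hpi, below 1664 and 1768 CPM in R35A cells.

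To see which regulators the starting culture contained, levels were compared per length of exon, as CPM per kilobase, in the wild-type libraries at 0 hpi. Cdkn1a was far above the others at 396 ± 1.02 CPM per kilobase (SD, n = 2), followed by Cdk4 at 101 ± 3.83 and Ccnd2 at 47.0 ± 0.689. Below these came Cdkn2d at 23.5 ± 1.23, Cdk2 at 20.6 ± 0.197, Ccnd3 at 20.1 ± 0.969 and Ccnd1 at 17.6 ± 0.137. Cdkn1b, Cdk6 and Cdkn2c were lowest at 12.4 ± 0.990, 12.1 ± 0.308 and 11.7 ± 0.310. The neighbours Cdk2 and Ccnd3, and likewise Cdkn1b, Cdk6 and Cdkn2c, differed by less than the sum of their SDs. At 18 hpi Ccnd1 ranked 4 of 10 with 40.8 ± 0.642 CPM per kilobase, and at 120 hpi it ranked 3 with 54.3 ± 0.0125, above Ccnd2 at 13.4 ± 0.168. Per kilobase, Ccnd2 was thus the most abundant D-type transcript in the wild-type libraries before induction and Ccnd1 in those at 120 hpi. The part of feeder RNA in these levels was not tested.

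Changes were tested in 1 edgeR quasi-likelihood model of all 36 libraries, and a gene was called where it changed at least 1.5-fold and its Benjamini-Hochberg adjusted p over the 17277 genes was 0.05 or lower. Before induction the members did not differ by this rule. None of the 10 was called for R35A minus WT or R35K minus WT at 0 hpi, and neither was any other gene (0% in both). At an unadjusted p under 0.05 there were 4 and 0 members and 1624 and 1010 of all genes, where 864 are expected by chance. In these comparisons DESeq2 called 1 and 0 genes and limma 25 and 17. The members' differences at 0 hpi lay between -0.14 and 0.07 on the log2 scale for R35A and between -0.07 and 0.02 for R35K. B cell markers at 0 hpi summed to 2821 and 2842 CPM in R35A and 2929 and 2975 CPM in R35K libraries. Both lay below the wild-type libraries at 3069 and 3125 CPM. From chromatin accessibility the paper proposes that the uninduced R35A construct was leaky, though without altered expression of the associated B cell genes.

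After induction, the members called in wild-type cells grew in number up to 18 hpi, and so did the share of all genes called. At 1 hpi 1 rose and 2 fell, where 19.7% of all genes were called, and at 3 hpi 1 rose and 2 fell, against 23.2%. At 6 hpi 1 rose and 4 fell (29.6% of all genes), at 18 hpi 2 rose and 5 fell (46.7%), and at 120 hpi 1 rose and 5 fell (61.8%). In R35A cells none rose and 5 fell at 1 hpi (37.1% of all genes), 3 hpi (36.7%) and 6 hpi (37.4%). Later, 1 rose and 5 fell in R35A cells at 18 hpi (42.4%) and 1 rose and 4 fell at 120 hpi (61.8%). R35K cells had 5 members down and none up at 1 hpi (31.9%) and 3 hpi (31.7%), 6 down at 6 hpi (33.2%), 7 down at 18 hpi (38.5%), and 1 up with 6 down at 120 hpi (62.2%). The median log2 change of the members at 1 hpi was -0.21 in wild-type, -0.73 in R35A and -0.61 in R35K cells, beside -0.04, 0.01 and 0.00 over all genes. At 120 hpi the counts of 6, 5 and 7 called members of 10 lay near the share of all genes.

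**Figure D2:**
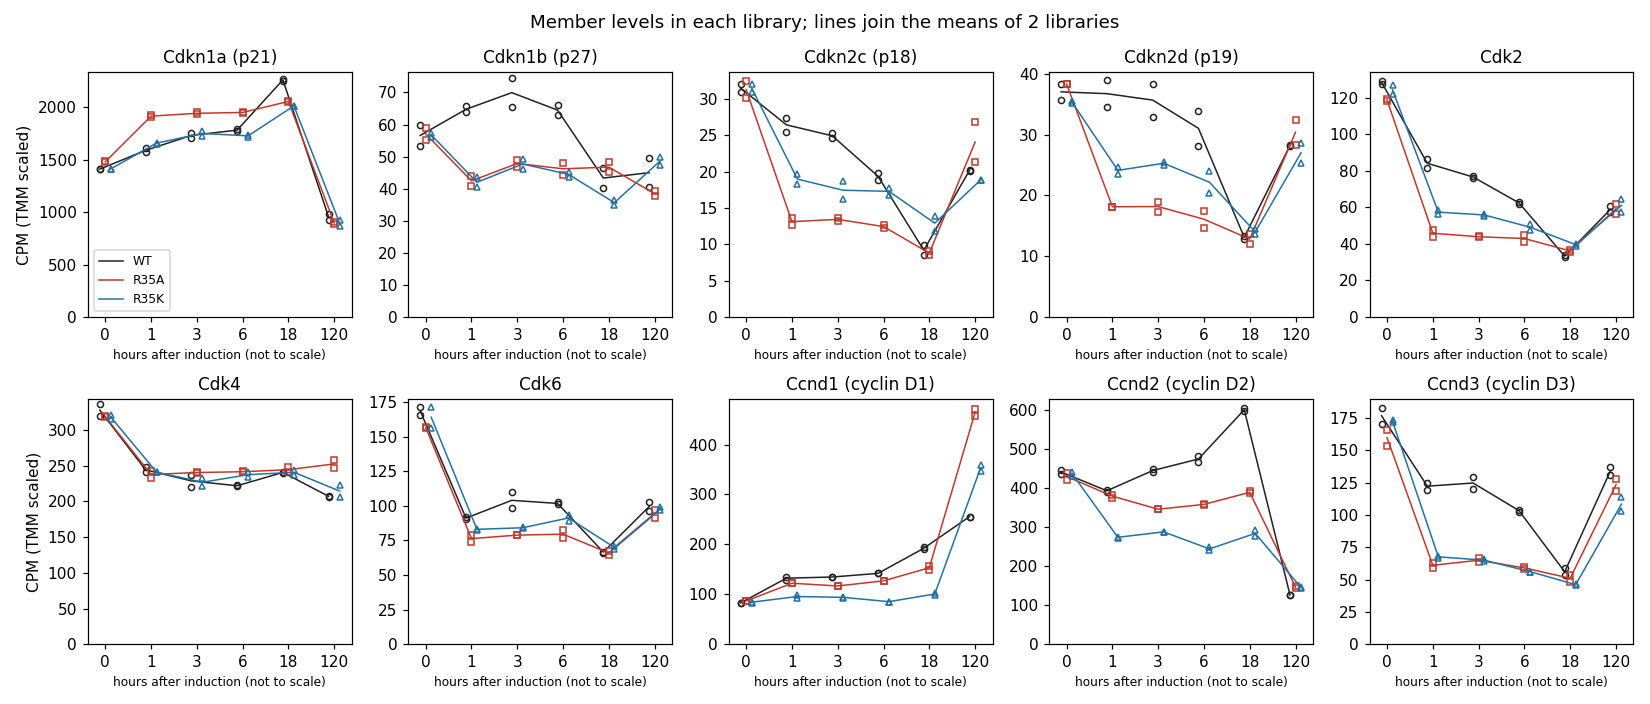
CPM of each member in each library against hours after induction (not to scale). Open symbols are libraries, lines join the means of 2 libraries, and each axis starts at 0. Cdk2, Cdkn2c, Cdkn2d and Ccnd3 lay lower in R35A than in wild-type cells at 1 hpi and came together by 18 hpi, while Ccnd1 reached 472 and 457 CPM in R35A cells at 120 hpi.

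Cyclin D1 (Ccnd1, chr7:144929931-144939925, minus strand, mm10) was the member that rose most. Wild-type libraries read 82.5 and 83.4 CPM (0 h), 136 and 129 (1 h), 134 and 135 (3 h), 142 and 142 (6 h), 190.2 and 194 (18 h) and 256 and 256 (120 h). R35A libraries read 86.0 and 87.7 CPM (0 h), 122 and 122 (1 h), 116 and 118 (3 h), 127 and 127 (6 h), 158 and 149 (18 h) and 472 and 457 (120 h). R35K libraries read 85.3 and 83.3 CPM (0 h), 93.5 and 97.8 (1 h), 94.4 and 93.6 (3 h), 85.3 and 85.5 (6 h), 98.1 and 103 (18 h) and 347 and 359.6 (120 h). Wild-type cells were thus the highest of the constructs from 1 to 18 hpi and the lowest at 120 hpi, with no overlap between constructs from 1 hpi on. In wild-type cells Ccnd1 rose at every time, by 0.67 ± 0.04 (SE) on the log2 scale at 1 hpi and by 1.21 ± 0.04 at 18 hpi (adjusted p = 8.48e-34), while in R35K cells its change was at most 0.26 through 18 hpi and was not called. The R35A rise was called at 18 hpi (0.82 ± 0.04) and lay under 1.5-fold before that (0.55 at 6 hpi, but 0.61 with DESeq2 and 0.61 with limma, where it was called). By 120 hpi Ccnd1 was 3.08-fold above its start in wild-type, 5.34-fold in R35A and 4.19-fold in R35K cells. The rise was smaller in R35K than in wild-type cells at 6 hpi (difference -0.76 ± 0.06, adjusted p = 1.35e-16) and 18 hpi (-0.96 ± 0.06, adjusted p = 6.95e-21), and larger in R35A cells at 120 hpi (0.79 ± 0.05, adjusted p = 4.47e-18). The constructs had the same order in the fibroblast sum at 18 hpi, whose part was not tested. At 120 hpi Ccnd1 stood at its highest while the fibroblast sum was below its 0 hpi level in every construct, and both were lowest in wild-type cells.

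Cyclin D2 (Ccnd2, chr6:127125162-127152193, minus strand), the leading D-type cyclin at the start, ended its first 18 hours on different sides of its 0 hpi level in the constructs. Wild-type libraries read 437 and 447 CPM (0 h), 391 and 396 (1 h), 448 and 443 (3 h), 467 and 484 (6 h), 598 and 605 (18 h) and 127 and 125 (120 h). In R35A libraries the levels were 438 and 422 CPM (0 h), 376 and 384 (1 h), 347 and 346 (3 h), 360.4 and 357 (6 h), 392.3 and 387 (18 h) and 149 and 144 (120 h). In R35K libraries they were 443 and 433 CPM (0 h), 273 and 276 (1 h), 288 and 289 (3 h), 241 and 248 (6 h), 277 and 292 (18 h) and 145 and 147 (120 h). At 18 hpi wild-type libraries lay above their start, R35A libraries below it and R35K libraries further below, and all were low at 120 hpi. Ccnd2 fell in R35K cells by 0.67 ± 0.03 on the log2 scale at 1 hpi (adjusted p = 4.39e-25) and by 0.62 ± 0.03 at 18 hpi, the latter not called without R35K 18 hpi replicate 1 (-0.58). The wild-type change at 18 hpi, 0.44 ± 0.03, was under 1.5-fold. At 120 hpi the level was 3.50-fold below the start in wild-type, 2.94-fold in R35A and 3.00-fold in R35K cells. The change was lower in R35K than in wild-type cells at 3 hpi (-0.61 ± 0.05), 6 hpi (-0.94 ± 0.05) and 18 hpi (-1.07 ± 0.05, adjusted p = 1.95e-26), and in R35A cells at 18 hpi (-0.59 ± 0.05, adjusted p = 1.29e-15). This R35A difference sat at the 1.5-fold limit and was not called without WT 0 hpi replicate 1 (-0.57), WT 18 hpi replicate 2 (-0.58), R35A 0 hpi replicate 1 (-0.56) or R35A 18 hpi replicate 2 (-0.58), nor without the low-count filter (-0.58). Fibroblast markers were likewise highest in wild-type and lowest in R35K cells at 18 hpi, and their part was not tested.

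Cyclin D3 (Ccnd3, chr17:47505051-47599691, plus strand), the D-type cyclin that pre-B cells rely on to divide, fell and then recovered in part. Wild-type libraries read 171 and 183 CPM (0 h), 119.5 and 125 (1 h), 120.3 and 129 (3 h), 104 and 103 (6 h), 58.6 and 53.5 (18 h) and 137 and 131 (120 h). R35A libraries read 154 and 166 CPM (0 h), 59.0 and 63.1 (1 h), 63.3 and 66.7 (3 h), 58.1 and 60.0 (6 h), 48.5 and 53.5 (18 h) and 128 and 119 (120 h). R35K libraries read 173 and 171 CPM (0 h), 67.0 and 68.2 (1 h), 65.9 and 64.2 (3 h), 56.2 and 56.2 (6 h), 46.3 and 45.9 (18 h) and 114 and 103 (120 h). Both mutants had made most of their fall at 1 hpi, and their libraries lay below every wild-type library from 1 to 6 hpi. At 1 hpi Ccnd3 was down 2.62-fold in R35A, 2.55-fold in R35K and 1.44-fold in wild-type cells, the last under the limit for a call. The difference from the wild type was -0.86 ± 0.07 for R35A (adjusted p = 1.01e-15) and -0.82 ± 0.07 for R35K (adjusted p = 7.14e-15), and both were called at 3 and 6 hpi too. At 18 hpi the fall was 3.16-fold in wild-type cells, and the differences of 0.01 ± 0.07 and -0.25 ± 0.07 were not called. In each construct the 120 hpi libraries still lay below both 0 hpi libraries.

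**Figure D3:**
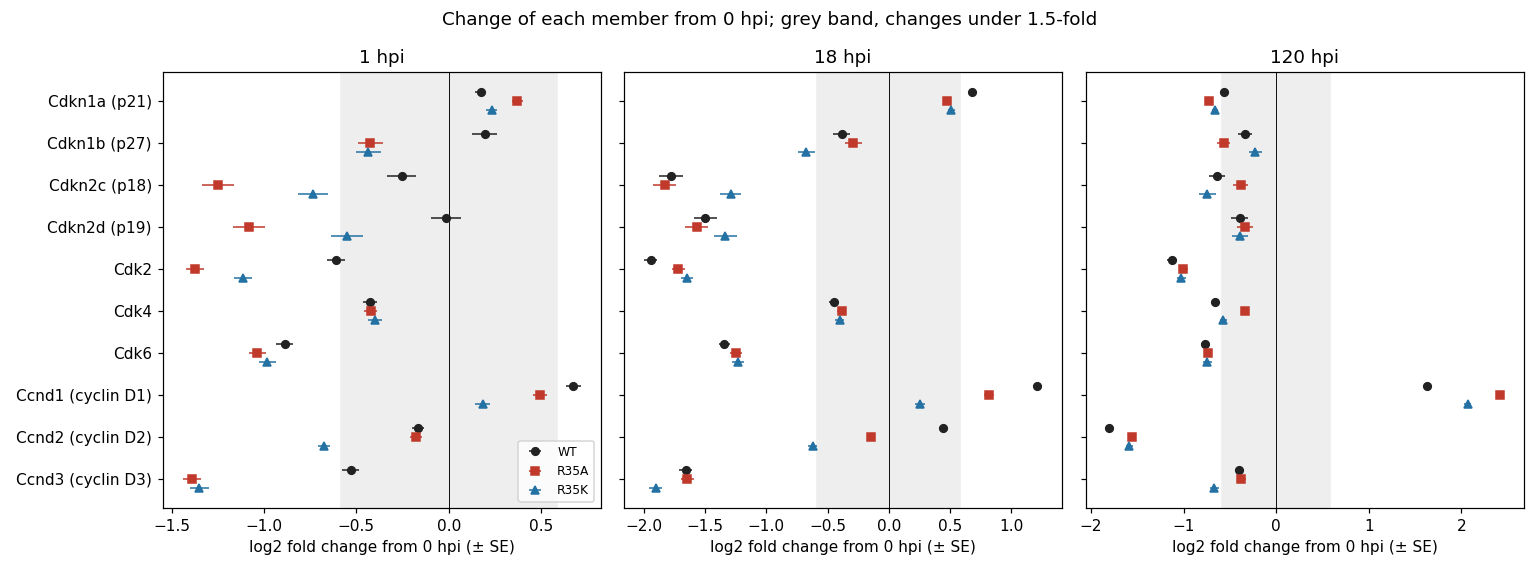
Log2 fold change of each member from 0 hpi at 1, 18 and 120 hpi in the constructs, with SE bars from the edgeR model. The grey band marks changes under 1.5-fold. Ccnd3 lay at -1.39 in R35A and -0.53 in wild-type cells at 1 hpi, at -1.64 and -1.66 at 18 hpi, and Ccnd1 was the only member above the band at 120 hpi.

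Among the kinases, Cdk2 (chr10:128697939-128705031, minus strand), the partner of E- and A-type cyclins whose promoter window with E2F letters is shown above, fell furthest. Wild-type libraries read 127 and 129 CPM (0 h), 81.6 and 86.5 (1 h), 75.9 and 77.2 (3 h), 61.8 and 63.1 (6 h), 32.9 and 33.7 (18 h) and 57.2 and 60.5 (120 h). R35A libraries read 118 and 119 CPM (0 h), 47.6 and 44.0 (1 h), 44.3 and 43.5 (3 h), 44.9 and 41.0 (6 h), 36.5 and 35.7 (18 h) and 56.4 and 62.0 (120 h). R35K libraries read 122 and 127 CPM (0 h), 56.1 and 58.6 (1 h), 55.5 and 56.1 (3 h), 50.7 and 47.6 (6 h), 40.1 and 39.1 (18 h) and 57.6 and 64.4 (120 h). The wild type stepped down at each time to 18 hpi, whereas the mutants made most of their fall within the first hour. Cdk2 was down 1.53-fold at 1 hpi and 3.85-fold at 18 hpi (adjusted p = 4.8e-37) in wild-type cells, against 2.59-fold and 3.29-fold in R35A and 2.16-fold and 3.13-fold in R35K cells. The wild-type call at 1 hpi (-0.61 ± 0.05 on the log2 scale) was lost without WT 1 hpi replicate 1 (-0.57), with DESeq2 (-0.58), with its size factors in edgeR (-0.58), with limma (-0.58) and without the rRNA-rich libraries (-0.58). R35A differed from the wild type by -0.76 ± 0.07 at 1 hpi (adjusted p = 8.64e-14) and -0.69 ± 0.07 at 3 hpi (adjusted p = 5.6e-12), and R35K by -0.50 ± 0.07 at 1 hpi, under the limit.

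Cdk6 (chr5:3341485-3531008, plus strand), a partner of the D-type cyclins, was called down at every time in every construct, and no difference between constructs was called for it. Wild-type libraries read 172 and 166 CPM (0 h), 90.4 and 91.8 (1 h), 66.9 and 66.3 (18 h) and 96.4 and 102 (120 h), R35A libraries 157 and 156 (0 h), 78.7 and 74.0 (1 h), 64.6 and 67.3 (18 h) and 90.9 and 97.1 (120 h), and R35K libraries 172 and 156 (0 h), 82.5 and 83.5 (1 h), 71.1 and 68.9 (18 h) and 97.0 and 98.8 (120 h). On the log2 scale the change at 1 hpi was -0.89 ± 0.05 in wild-type, -1.04 ± 0.05 in R35A and -0.98 ± 0.05 in R35K cells, and the mutants differed from the wild type by -0.15 ± 0.07 and -0.09 ± 0.07. Cdk4 (chr10:127063534-127067920, plus strand), the other kinase of D-type cyclins and the one with 4 CACGTG matches in its window, changed little. It read 319 and 337 CPM (0 h), 241 and 248 (1 h), 242 and 239 (18 h) and 206 and 208 (120 h) in wild-type libraries, and its mean over the 18 groups ranged 1.58-fold, from 207 to 328 CPM, the narrowest range of the members. Each Cdk4 library after 0 hpi nonetheless lay below both 0 hpi libraries of its construct. The wild-type change at 120 hpi, -0.66 ± 0.04 (adjusted p = 2.45e-22), was the only one called in this model. The R35K change there, -0.57 ± 0.04, passed the limit without R35K 120 hpi replicate 1 (-0.69), without the low-count filter (-0.72), with the tables fitted apart (-0.67) and without the rRNA-rich libraries (-0.63). The wild-type change of -0.56 ± 0.04 at 6 hpi passed it without WT 0 hpi replicate 1 (-0.60) and without the low-count filter (-0.59). No difference between constructs was called for Cdk4, the largest being 0.33 ± 0.05 for R35A at 120 hpi.

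The INK4 inhibitors followed courses like that of Cdk2. Cdkn2c (p18, chr4:109660876-109667189, minus strand), whose downstream promoter window with C/EBP letters is shown above, read 32.1 and 30.9 CPM (0 h), 27.5 and 25.4 (1 h), 25.3 and 24.6 (3 h), 18.9 and 19.8 (6 h), 9.89 and 8.51 (18 h) and 20.3 and 20.2 (120 h) in wild-type libraries. R35A libraries read 32.5 and 30.1 CPM (0 h), 12.7 and 13.6 (1 h), 13.2 and 13.7 (3 h), 12.2 and 12.7 (6 h), 9.05 and 8.54 (18 h) and 26.8 and 21.4 (120 h). R35K libraries read 32.0 and 31.0 CPM (0 h), 19.7 and 18.3 (1 h), 18.7 and 16.2 (3 h), 17.8 and 16.8 (6 h), 11.9 and 13.97 (18 h) and 18.9 and 18.8 (120 h). From 1 to 6 hpi the constructs were ordered wild type, R35K and R35A with no overlap, and all fell further to 18 hpi. At 1 hpi Cdkn2c was down 2.38-fold in R35A (adjusted p = 4.14e-19) and 1.66-fold in R35K cells, and the wild-type change of -0.25 ± 0.08 was under the limit. R35A minus WT was -0.99 ± 0.12 at 1 hpi (adjusted p = 3.99e-10), -0.88 ± 0.12 at 3 hpi and -0.62 ± 0.12 at 6 hpi, the last not called without R35A 0 hpi replicate 1 (-0.57). By 18 hpi Cdkn2c was down 3.43-fold in wild-type and 3.56-fold in R35A cells, which differed by -0.05 ± 0.14.

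Cdkn2d (p19, chr9:21288410-21291407, minus strand) held its level longer in wild-type cells. Wild-type libraries read 35.7 and 38.4 CPM (0 h), 39.0 and 34.5 (1 h), 33.0 and 38.4 (3 h), 28.1 and 33.9 (6 h), 12.9 and 13.3 (18 h) and 28.1 and 28.3 (120 h). R35A libraries read 38.4 and 38.3 CPM (0 h), 18.13 and 18.14 (1 h), 18.98 and 17.3 (3 h), 17.5 and 14.7 (6 h), 11.9 and 13.7 (18 h) and 32.4 and 28.4 (120 h). R35K libraries read 35.4 and 35.2 CPM (0 h), 24.7 and 23.5 (1 h), 25.5 and 25.1 (3 h), 20.4 and 23.96 (6 h), 13.6 and 14.4 (18 h) and 28.6 and 25.3 (120 h). At 1 and 3 hpi the wild-type libraries overlapped those of 0 hpi, while both mutants lay below all of them. The change at 1 hpi was -1.08 ± 0.09 on the log2 scale in R35A and -0.01 ± 0.08 in wild-type cells, and the difference was -1.06 ± 0.12 at 1 hpi (adjusted p = 9.69e-11), -1.03 ± 0.12 at 3 hpi and -1.01 ± 0.12 at 6 hpi. R35K minus WT was -0.54 ± 0.12 at 1 hpi, under the limit but past it without WT 0 hpi replicate 2 (-0.59) or WT 1 hpi replicate 2 (-0.63), without the low-count filter (-0.60) and without the rRNA-rich libraries (-0.61). In R35K cells the fall at 6 hpi (-0.67 ± 0.09) was not called without R35K 6 hpi replicate 1 (-0.55). From 18 to 120 hpi Cdkn2d rose again, by 1.105 ± 0.11 in wild-type, 1.23 ± 0.10 in R35A and 0.95 ± 0.10 in R35K cells.

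The Cip/Kip inhibitors took other courses than the INK4 pair. Cdkn1a (p21, chr17:29090976-29100727, plus strand), a target of p53 and the most abundant member, read 1406 and 1411 CPM (0 h), 1607 and 1567 (1 h), 1704 and 1756 (3 h), 1774 and 1786 (6 h), 2265 and 2252 (18 h) and 977 and 922 (120 h) in wild-type libraries. R35A libraries read 1473 and 1483 CPM (0 h), 1925 and 1901 (1 h), 1933 and 1948 (3 h), 1954 and 1943 (6 h), 2047 and 2059 (18 h) and 909 and 882 (120 h). R35K libraries read 1409.9 and 1411 CPM (0 h), 1660.2 and 1652 (1 h), 1727 and 1769 (3 h), 1738 and 1713 (6 h), 2009 and 2013 (18 h) and 923 and 863 (120 h). In each construct every library from 1 to 18 hpi lay above both 0 hpi libraries, and both 120 hpi libraries lay below them. The rise passed 1.5-fold in wild-type cells at 18 hpi (0.68 ± 0.03, 1.60-fold, adjusted p = 1.35e-28), with 0.47 ± 0.03 in R35A and 0.51 ± 0.03 in R35K cells, and no difference between constructs was called. From 18 to 120 hpi Cdkn1a fell by 1.25 ± 0.03 in wild-type, 1.197 ± 0.03 in R35A and 1.17 ± 0.03 in R35K cells. Its wild-type change from 0 to 120 hpi, -0.57 ± 0.03, lay just under the limit and passed it without WT 120 hpi replicate 1 (-0.68) or WT 120 hpi replicate 2 (-0.59), without the low-count filter (-0.77), with the tables fitted apart (-0.70) and without the rRNA-rich libraries (-0.64). The R35A change from 0 to 120 hpi, -0.72 ± 0.03, was called. In wild-type cells 13 of 14 fibroblast markers were called up at 18 hpi (median 1.23) and 14 down at 120 hpi (median -4.16), and their part in the level of Cdkn1a was not tested. Of 16 other p53 target genes, 10 rose and 1 fell in wild-type cells at 18 hpi (median 0.65, 46.7% of all genes called), 3 rose and 1 fell in R35A cells at 18 hpi (below the 42.4% of all genes), and 2 rose and 10 fell in wild-type cells at 120 hpi (median -1.13, 61.8%). Among them Eda2r, a receptor of the TNF family, read 139.95 and 141 CPM (0 h), 260.4 and 269 (18 h) and 9.20 and 8.89 (120 h) in wild-type libraries. The fibroblast sum likewise rose to 18 hpi and fell by 120 hpi there, and its part in these p53 target genes was not tested.

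Cdkn1b (p27, chr6:134920401-134925513, plus strand) changed least among the inhibitors. Wild-type libraries read 59.8 and 53.4 CPM (0 h), 63.8 and 65.7 (1 h), 74.5 and 65.5 (3 h), 66.2 and 62.8 (6 h), 40.2 and 46.5 (18 h) and 40.4 and 49.6 (120 h). R35A libraries read 59.0 and 55.2 CPM (0 h), 40.8 and 44.1 (1 h), 48.9 and 46.8 (3 h), 48.1 and 44.3 (6 h), 48.2 and 45.3 (18 h) and 39.2 and 37.8 (120 h). R35K libraries read 57.4 and 56.2 CPM (0 h), 40.4 and 43.6 (1 h), 49.4 and 46.0 (3 h), 43.7 and 45.2 (6 h), 34.9 and 36.4 (18 h) and 49.8 and 47.5 (120 h). From 1 to 6 hpi the wild-type libraries lay above their 0 hpi level and the mutant libraries below theirs. The one called change from 0 hpi was in R35K cells at 18 hpi (-0.67 ± 0.07, adjusted p = 2.97e-12), and the R35A change at 120 hpi, -0.57 ± 0.07, passed the limit without R35A 0 hpi replicate 2 (-0.62), R35A 120 hpi replicate 1 (-0.65) or R35A 120 hpi replicate 2 (-0.61), without the low-count filter (-0.71), with the tables fitted apart (-0.69) and without the rRNA-rich libraries (-0.64). Against the wild type, the change at 1 hpi differed by -0.62 ± 0.10 for R35A (adjusted p = 3.56e-07) and -0.63 ± 0.10 for R35K (adjusted p = 3.88e-07). The R35A call was lost without WT 0 hpi replicate 2 (-0.54), R35A 0 hpi replicate 1 (-0.58) or R35A 1 hpi replicate 1 (-0.57), and the R35K call without WT 0 hpi replicate 2 (-0.55) or R35K 1 hpi replicate 1 (-0.58). At 3 hpi the differences of -0.55 ± 0.10 and -0.56 ± 0.09 lay under the limit and passed it without WT 0 hpi replicate 1 (-0.64), WT 3 hpi replicate 2 (-0.65), R35A 0 hpi replicate 2 (-0.61) or R35A 3 hpi replicate 1 (-0.59) for R35A and without WT 0 hpi replicate 1 (-0.65), WT 3 hpi replicate 2 (-0.65) or R35K 3 hpi replicate 1 (-0.61) for R35K.

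Set side by side, the called differences of R35A from the wild type were mostly early. R35K had some at each time to 18 hpi, Cdkn1b and Ccnd3 at 1 hpi and Ccnd1 and Ccnd2 at 18 hpi. For R35A minus WT, 5 members (Cdkn1b, Cdkn2c, Cdkn2d, Cdk2 and Ccnd3) had a lower change at 1 hpi and none a higher one, where 13.9% of all genes were called. The counts were 4 at 3 hpi (12.7% of all genes), 3 at 6 hpi (10.1%) and 1 at 18 hpi (8.32%), all lower, and 1 higher at 120 hpi (14.2%). For R35K minus WT they were 2 lower at 1 hpi (11.9% of all genes) and 2 lower at 3 hpi (10%). Later they were 3 lower at 6 hpi (12.2%) and 2 lower at 18 hpi (13.3%). These R35K counts of 2 or 3 of 10 lay not far above the share of all genes. At 120 hpi edgeR, DESeq2 and limma each called 0 members for R35K minus WT (10.1% of all genes by edgeR), and 4 had an unadjusted p under 0.05, Ccnd1 with the largest difference, 0.44 ± 0.05 (adjusted p = 3.09e-09), under 1.5-fold. At 1 hpi Cdkn1b and Ccnd3 were called in both mutants with like values (-0.62 and -0.86 for R35A, -0.63 and -0.82 for R35K), and Cdk2 and the INK4 inhibitors were called in R35A, with -0.50, -0.48 and -0.54 under the limit in R35K. At 18 hpi Ccnd2 was called in both (-0.59 and -1.07) and Ccnd1 in R35K, with -0.40 under the limit in R35A. The fibroblast sum was likewise highest in wild-type and lowest in R35K cells at 18 hpi, and its part was not tested. B cell markers summed to 1406 and 1406 CPM in wild-type, 779 and 787 in R35K and 433 and 436 in R35A libraries at 1 hpi, which was also the order of the constructs in Cdk2, Cdkn2c and Cdkn2d. Macrophage markers summed to 844 and 859 CPM in wild-type, 7942 and 8077 in R35K and 3721 and 3737 in R35A libraries, and the part of both lists in the differences was not tested. Both sets of differences share the wild-type libraries, and R35A and R35K were not tested against each other.

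**Figure D4:**
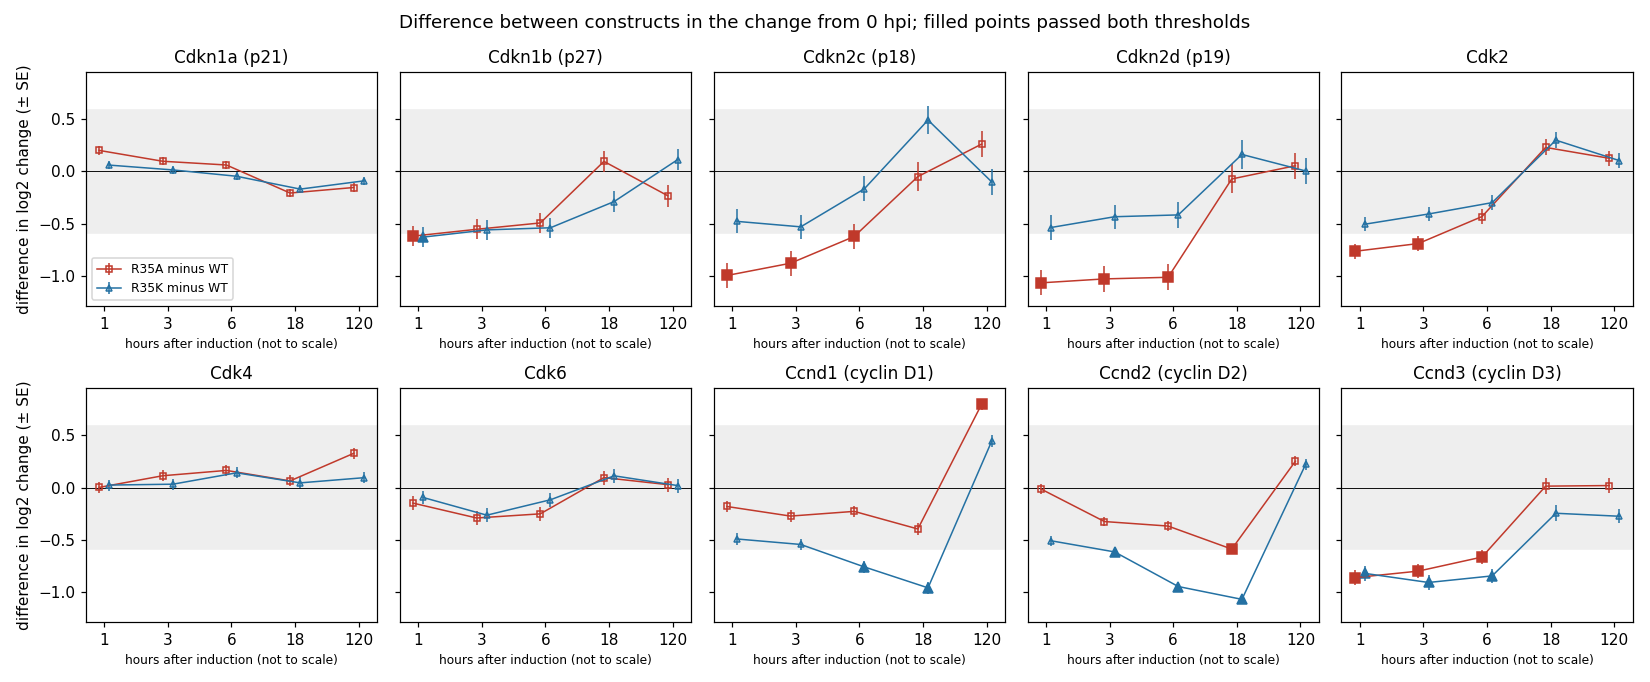
Difference between each mutant and the wild type in the log2 change from 0 hpi, with SE bars, for each member against hours after induction (not to scale). Filled points passed 1.5-fold and an adjusted p of 0.05, and the grey band marks differences under 1.5-fold. Cdkn2d in R35A cells stayed at -1.06, -1.03 and -1.01 from 1 to 6 hpi and was at -0.07 at 18 hpi, while Ccnd2 in R35K cells went from -0.51 at 1 hpi to -1.07 at 18 hpi.

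How much of the course was left after the first hour was asked by setting 18 hpi against 1 hpi within each construct. In wild-type cells 1 rose and 4 fell (25.2% of all genes were called). Cdkn2c, Cdkn2d, Cdk2 and Ccnd3 fell by 1.53, 1.48, 1.34 and 1.13 on the log2 scale, and Ccnd2 rose by 0.61 (0.58 and not called without the low-count filter). Cdkn1b (-0.58 ± 0.07) was called as well without WT 1 hpi replicate 1 (-0.60) or WT 18 hpi replicate 2 (-0.69), without the low-count filter (-0.61) and with the tables fitted apart (-0.60). Rises of Cdkn1a (0.51 ± 0.03) and Ccnd1 (0.54 ± 0.04) were called with DESeq2 (0.60 and 0.63), with its size factors in edgeR and with limma (0.60 and 0.63), which made 3 up and 4 down. In R35A cells edgeR called 0 members, which lay near the share of all genes (5.57%). Limma called 0 too, and 7 members had an unadjusted p under 0.05. The largest change was -0.58 ± 0.11 for Cdkn2c, which was called by DESeq2 (-0.59) and without R35A 1 hpi replicate 1 (-0.63) or R35A 18 hpi replicate 1 (-0.62), as was Cdkn2d (-0.49 ± 0.10) without R35A 18 hpi replicate 2 (-0.60). In R35K cells 1 member was called, which also lay near the share of all genes (9.05%). It was Cdkn2d at -0.78 ± 0.10, and Cdkn2c (-0.56 ± 0.10) joined it without R35K 1 hpi replicate 2 (-0.61) or R35K 18 hpi replicate 2 (-0.68).

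The last step, from 18 to 120 hpi, was set apart in the same way. In wild-type cells 4 rose and 2 fell (60.5% of all genes), in R35A cells 5 rose and 2 fell (53.8%), and in R35K cells 4 rose and 2 fell (52.7%), so that the counts of 6, 7 and 6 of 10 lay near the share of all genes. Ccnd3 rose by 1.26 ± 0.05, 1.27 ± 0.05 and 1.23 ± 0.06, and Cdk2 by 0.82 ± 0.06, 0.72 ± 0.06 and 0.62 ± 0.06, in wild-type, R35A and R35K cells. The R35A call of Cdk2 was lost without R35A 120 hpi replicate 2 (0.57) and the R35K call without R35K 120 hpi replicate 2 (0.49), without the low-count filter (0.53), with the tables fitted apart (0.57) and without the rRNA-rich libraries (0.57). Ccnd2 and Cdkn1a fell in all constructs.

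The machinery around the members was described by lists of genes, each count beside the share of all genes called. Of 9 tested genes for E- and A-type cyclins and CDK activation, 5 fell in wild-type cells at 1 hpi (median -0.68, 19.7% of all genes), 7 at 18 hpi (median -1.46, 46.7%) and 6 at 120 hpi (median -1.67, 61.8%), the last near the share of all genes, and none rose. In R35A cells 7 fell already at 1 hpi (median -1.28, 37.1% of all genes). Cyclin A2 (Ccna2), the S-phase partner of CDK2, read 231 and 238 CPM (0 h), 137 and 138 (1 h), 20.3 and 22.3 (18 h) and 42.4 and 43.8 (120 h) in wild-type libraries and 213 and 215 (0 h), 42.9 and 43.2 (1 h), 21.4 and 20.6 (18 h) and 50.6 and 55.4 (120 h) in R35A libraries. The R35A libraries lay far below the wild-type ones at 1 hpi and the libraries of both were low by 18 hpi. Cyclin E2 (Ccne2) changed by -1.91 ± 0.08 on the log2 scale at 1 hpi in R35A cells and by -3.31 ± 0.11 at 120 hpi in wild-type cells.

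Among 10 genes of the E2F family and its DP partners, which carry the output of RB, 5 fell at 1 hpi (19.7% of all genes), 8 at 18 hpi (46.7%) and 7 at 120 hpi (61.8%, near the list's own share), all in wild-type cells, and 8 fell at 1 hpi in R35A cells (37.1%). The repressor E2f7 changed by -2.36 ± 0.07 in R35A cells at 1 hpi and by -3.14 ± 0.09 in wild-type cells at 120 hpi, the activator E2f2 by -2.20 ± 0.05 in the former and the DP partner Tfdp2 by -2.31 ± 0.07 in the latter. Of 8 RB family genes and partners 4 fell in R35A cells at 1 hpi (37.1% of all genes), and 1 rose and 4 fell in wild-type cells at 120 hpi (61.8%), the latter near the share of all genes. Rbl1 (p107) fell by 1.82 ± 0.07 in R35A cells at 1 hpi and Lin9, a subunit of the MuvB complex, by 1.22 ± 0.08. Rbl2 (p130), the pocket protein of resting cells, rose by 0.89 ± 0.05 in wild-type cells at 120 hpi, where Rbl1 changed by -0.99 ± 0.07 and Lin9 by -1.25 ± 0.09.

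Most of the 10 ubiquitin ligase subunits that act on G1 regulators were not called, with 1 down in wild-type cells at 1 hpi (19.7% of all genes), 1 higher and 2 lower in R35A cells at that time (37.1%) and 1 up and 3 down in wild-type cells at 120 hpi (61.8%), none of them above the share of all genes. Dtl and Skp2, substrate receptors of ligases active in S phase, fell by 2.57 ± 0.04 and 1.66 ± 0.08 in R35A cells at 1 hpi and by 3.47 ± 0.05 and 1.96 ± 0.10 in wild-type cells at 120 hpi. The F-box gene Fbxo4 rose by 0.74 ± 0.10 and 1.39 ± 0.10 in the same comparisons. Of 7 upstream transcription factors, 3 fell in wild-type cells at 1 hpi (19.7% of all genes), 1 rose and 4 fell in R35A cells at 1 hpi (37.1%), and 1 rose and 5 fell in wild-type cells at 120 hpi (61.8%). Myc, which activates the genes of cyclin D2 and CDK4, was the one that rose, reading 33.7 and 34.0 CPM (0 h), 48.8 and 46.5 (1 h) and 138 and 140.5 (120 h) in wild-type and 36.8 and 40.0 (0 h), 64.1 and 67.1 (1 h) and 69.7 and 63.9 (120 h) in R35A libraries. The progenitor factor Myb read 312 and 315 CPM (0 h), 183 and 187 (1 h) and 3.36 and 4.11 (120 h) in wild-type and 303 and 299 (0 h), 39.5 and 35.5 (1 h) and 2.64 and 3.26 (120 h) in R35A libraries, and its relative Mybl2 fell by 2.30 ± 0.08 in R35A cells at 1 hpi. Mycn was low at the start, with 2.61 and 3.92 CPM (0 h) and 0 and 0.0956 (120 h) in wild-type libraries.

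Of 4 further CDK inhibitor genes, Cdkn3, a phosphatase that acts on CDK2, fell by 0.92 ± 0.11 in wild-type and 1.92 ± 0.13 in R35A cells at 1 hpi. Cdkn2b (p15), another INK4 gene, read 36.8 and 35.8 CPM (0 h), 64.2 and 63.6 (18 h) and 4.60 and 5.07 (120 h) in wild-type and 39.7 and 40.3 (0 h), 50.1 and 49.7 (18 h) and 12.2 and 12.4 (120 h) in R35A libraries. Cdkn1c (p57) was low, with 2.19 and 2.85 CPM (0 h) and 0.0884 and 0.191 (120 h) in wild-type libraries. Cdkn2b was highest at 18 hpi in wild-type cells and higher in R35A than wild-type cells at 120 hpi, as was the fibroblast sum, whose part was not tested. Further p53 target genes were Sesn1 (1.19 ± 0.06) and Btg2 (0.94 ± 0.04) in wild-type cells at 120 hpi. In R35A cells at 1 hpi they were Fas (0.72 ± 0.06) and Sesn1 (-0.83 ± 0.06). Perp read 242 and 239 CPM (0 h) and 0.177 and 0.860 (120 h) in wild-type libraries. The part of feeder RNA in these genes and in Cdkn1c was not tested.

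The courses of the members were compared with each other and with other genes over the 18 group means of log2 CPM, as a description, since the groups share constructs and starting cells. Cdkn2c and Cdkn2d followed each other with Pearson's r = 0.968, Cdk2 and Cdk6 with r = 0.955, Cdkn2c and Cdk2 with r = 0.946 and Cdk2 and Ccnd3 with r = 0.905. Cdkn1a went with Ccnd2 (r = 0.771) and against Ccnd3 (r = -0.65), and Ccnd1 against Ccnd2 (r = -0.608). Of 6976 genes compared with Cdkn1a by level and range, those most like it were Frmd8 (r = 0.991), Micall1 (0.989) and Mex3d (0.988). Most like Cdk2 were Dnmt1 (r = 0.995), Prim2 (0.994) and Rfc5 (0.994), which act in DNA replication or maintain its methylation, and most like Cdkn2c the mitosis genes Cenpe (r = 0.991), Cdca8 (0.990) and Cep55 (0.990). Cdkn2d stood next to Rcsd1 (r = 0.990), Pimreg (0.983) and Git2 (0.980), and Cdk6 next to Pkig (r = 0.980), Xrcc1 (0.977) and Cdkn2aipnl (0.975). For Ccnd1 they were Chid1 (r = 0.978), Tm7sf3 (0.965) and Shpk (0.958), for Ccnd2 Utrn (r = 0.983), Rab3ip (0.971) and Pdlim1 (0.965) and for Ccnd3 Chd9 (r = 0.968), Map4k2 (0.967) and Neil1 (0.966). Cdk4 and Cdkn1b had less close neighbours, Pafah1b3 (r = 0.938), Mthfd1 (0.937) and Alad (0.936) for the former and Crebzf (r = 0.869), Dync2h1 (0.862) and Amer1 (0.848) for the latter.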

How the data were processed

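RNA-seq of 36 libraries (18 groups of 2 biological replicates) was analysed. Per the labels and the submitters' processing notes, reads were checked with FastQC and aligned to mm10 with STAR 2.5.0a, and the deposited gene counts are whole reads per gene, with the annotation release and strand setting not given in the sources used here. The authors also deposited log2 normalized counts, made with DESeq2 1.14.1, for 19067 genes. All of these values were recovered from the counts as log2(count / size factor + 1) within 0.001. No count column was left unused (0).

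Counts of both tables were joined, filtered with filterByExpr, scaled with TMM and fitted in 1 model of 18 groups with edgeR 4.0.16 (R 4.3.3, glmQLFit and glmQLFTest). The model was also run on counts simulated with the spread estimated from these data. A call needed 1.5-fold and a Benjamini-Hochberg adjusted p of 0.05 or less. SE is the log2 change divided by the root of its F statistic. The common biological coefficient of variation was 3.27%, so that most calls were set by the fold limit. DESeq2 1.42.0 and limma 3.58.1 served as alternatives, beside other scalings, filters, thresholds, separate fits of 24 and 12 libraries, a replicate block and leaving out each library. Gene positions and exon lengths came from GENCODE vM21.

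The replicate number did not pair the libraries. Within-group deviations over 6141 genes correlated with a median r of -0.00289 over 153 pairs of groups (range -0.668 to 0.467). Some groups thus shared deviations, without a consistent sign by replicate number. Chi-square per degree of freedom between 2 replicates, near 1 under counting noise, ran from 1.11 (R35A 6 hpi) to 13.2 (WT 6 hpi). Every pair thus differed by more than counting noise, some of them only slightly, and SE and p-values rest on the spread of such pairs. The members and lists were chosen with earlier results of these data known. Every member was named. Other pathway genes were named where they changed most in their list in wild-type cells at 120 hpi or R35A cells at 1 hpi (at most 2 up and 2 down), and neighbours were the 3 genes with the highest Pearson r. An item of the fixed marker lists is not reported here.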

Additional observations from a re-analysis of the deposited data

Results flagged for a closer look

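Differences of a mutant from the wild type, in the change from 0 hpi, that passed both thresholds were looked at again. They compare the changes after E2 and myeloid cytokines were added to B cells that carry different C/EBPα-ER constructs. The part of feeder RNA in these changes was not tested. For R35A minus WT at 1 hpi they were -0.62 for Cdkn1b, -0.99 for Cdkn2c, -1.06 for Cdkn2d, -0.76 for Cdk2 and -0.86 for Ccnd3 on the log2 scale, with all libraries of the mutant below those of the wild type at that time. At 3 hpi they were -0.88 for Cdkn2c, -1.03 for Cdkn2d, -0.69 for Cdk2 and -0.80 for Ccnd3, and at 6 hpi -0.62 for Cdkn2c, -1.01 for Cdkn2d and -0.66 for Ccnd3. Later differences were -0.59 for Ccnd2 at 18 hpi and 0.79 for Ccnd1 at 120 hpi.

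For R35K minus WT they were -0.63 for Cdkn1b and -0.82 for Ccnd3 at 1 hpi, and -0.61 for Ccnd2 and -0.91 for Ccnd3 at 3 hpi. At 6 hpi they were -0.76 for Ccnd1, -0.94 for Ccnd2 and -0.84 for Ccnd3, and at 18 hpi -0.96 for Ccnd1 and -1.07 for Ccnd2. The R35K libraries come from a table of their own, and all these values use the changes from each construct's own 0 hpi libraries. Groups of 2 libraries are too small for a test of single outlying samples.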

How the results depend on the processing

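Of 330 member changes and differences, 96 were under 0.25 on the log2 scale, of which 35 changed sign under some alternative and 0 were called under any, and none of the other 234 changed sign. With DESeq2 229 of the 234 kept their side of the thresholds, with DESeq2 size factors 229, without the low-count filter 222, with limma on the deposited log2 values 230, with 10 counts required in every library of a group 234, and with the 24 and the 12 libraries fitted apart 200 of 206. Without the 2 libraries rich in rRNA reads, an alternative chosen after seeing the data, 226 did. The replicate block changed no member's call and no count of members (for example 3 in wild-type cells at 1 hpi, 5 for R35A minus WT at 1 hpi). The replicate numbers showed no consistent pairing, with 32 of 153 correlations over 0.1. Correlations ran from -0.668 to 0.467, so a block by number could not remove deviations that some groups shared. Unadjusted p-values gave the same calls.

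A 2-fold threshold lowered the counts of members called to 0, 0, 1 and 3 in wild-type cells at 1, 3, 6 and 120 hpi, to 3 in R35A cells at 120 hpi, and to 2, 2, 2 and 3 in R35K cells at 1, 3, 6 and 120 hpi. It gave 0 from 1 to 18 hpi and 3 from 18 to 120 hpi in R35K cells. For R35A minus WT it gave 1 each at 1, 3 and 6 hpi and 0 each at 18 and 120 hpi, and for R35K minus WT 0, 0, 0 and 1 at 1, 3, 6 and 18 hpi. DESeq2 and DESeq2 size factors in edgeR each called 1 member in R35A cells from 1 to 18 hpi, and without the low-count filter 0 were called for R35A minus WT at 18 hpi. Leaving out each library in turn gave 0 to 1 members in R35A and 1 to 2 in R35K cells from 1 to 18 hpi, 0 to 1 for R35A minus WT at 18 hpi, and 1 to 3 at 1 hpi and 2 to 4 at 3 hpi for R35K minus WT. The 4 were reached without R35K 3 hpi replicate 1, where Cdkn1b (-0.61) and Cdkn2c (-0.62) were also called. The cause was not tested.

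DESeq2 size factors moved the median of all genes by 0.12 in wild-type cells at 18 hpi, and the share of calls that were higher from 66.8% to 52.8% for R35K minus WT at 18 hpi, from 67.6% to 56.7% for R35A minus WT at 18 hpi and from 42.1% to 53.9% in wild-type cells from 1 to 18 hpi. Leaving out the filter moved the median in wild-type cells at 120 hpi by -0.20. With limma the share for R35A minus WT went from 45.6% to 55.8% at 3 hpi and from 41.7% to 54.2% at 6 hpi. Member levels moved by at most 7.02% with another scaling. With counts of at least 141 the fold limit rather than depth set most calls.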
